A study of Neurospora crassa OR74A with 12 samples.

Results

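The 4 catalase genes of *Neurospora crassa*, *cat-1* (NCU08791), *cat-2* (NCU05770), *cat-3* (NCU00355) and *cat-4* (NCU05169), were taken by locus identifier from the 10685 genes of the deposited RNA-seq table, and their levels were followed over 4 groups of mycelium with 3 libraries each. The groups were the *upf-1* knockout (upf-1KO) with 20 mM H2O2, the wild type (WT) with 20 mM H2O2, upf-1KO without treatment and WT without treatment. In upf-1KO the *upf-1* gene was replaced by a hygromycin resistance cassette. According to the study's methods, the host for the knockouts was a *ku70*RIP strain with the *bd* mutation, the wild types were a *bd* strain and another laboratory strain, and the strains as a whole shared one *bd* background. The sample labels give OR74A for all 12 libraries and name neither *bd* nor *ku70*RIP. The labels call the tissue mycelium and hyphal cells, and the length of the H2O2 treatment is not given for the RNA-seq samples.

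Catalases are heme enzymes that split H2O2 into water and oxygen. CAT-1 and CAT-3 are catalases with large subunits, known mainly from conidia and from growing mycelium, CAT-2 is a bifunctional catalase-peroxidase known from aerial hyphae and conidia, and CAT-4, whose gene has the synonym *ctt-1*, is of the small-subunit type. UPF-1 is the RNA helicase at the core of nonsense-mediated mRNA decay (NMD), the pathway that degrades transcripts with premature stop codons and a set of normal transcripts.

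On the NC12 genome *cat-1* lies on chromosome III from 5111604 to 5114534 and has 2 exons that add up to 2870 bases. *cat-3* lies on the same chromosome from 3561379 to 3564584, with 3 exons of 3078 bases together. *cat-2* is a single exon of 2969 bases on chromosome VII from 3764986 to 3767954, and *cat-4* has 2 exons of 3045 bases together on chromosome IV from 5891781 to 5894885. None of the 4 overlaps another annotated gene. The nearest neighbour of *cat-3*, NCU00356, begins 76 bases away, and strand use in the counting is not stated.

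Each library held 5891672 to 7703271 gene reads, and 1612 to 9635 of them fell on the 4 catalases. Reads on *upf-1* itself (NCU04242, symbol *prd-6* in RefSeq) were 374, 257 and 375 in upf-1KO with H2O2, 591, 501 and 588 in WT with H2O2, 232, 232 and 236 in untreated upf-1KO, and 741, 748 and 622 in untreated WT. They were lower in the upf-1KO libraries of both treatments but not absent, and the table does not say on which part of the locus they lie. A pair of libraries stood apart from their replicates across all genes tested. Replicate 2 of upf-1KO with H2O2 had Spearman correlations of 0.879 and 0.873 with the other two, which correlated at 0.990 with each other, and replicate 1 of WT with H2O2 had 0.952 and 0.953, against 0.986 between the other two. Replicates of the untreated groups correlated at 0.992 or more. Results of the catalases that involve H2O2 and changed without these libraries are given both ways, an alternative chosen after seeing the data. It shrinks the spread between replicates by its own construction, so its adjusted p-values are smaller.

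**Figure D1:**
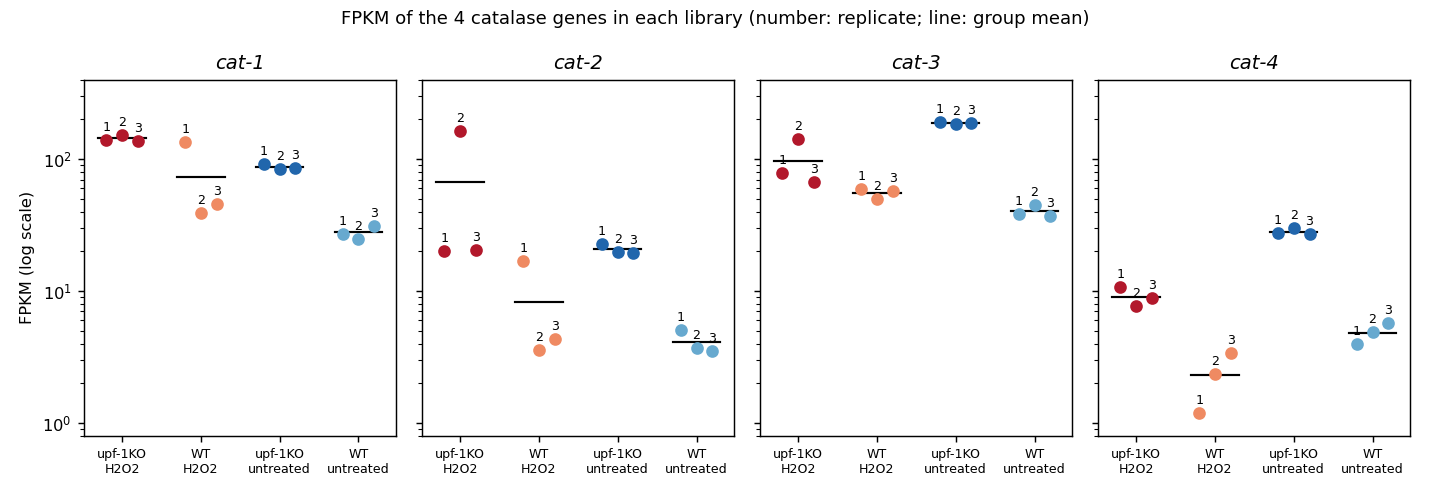
FPKM (fragments per kilobase of gene, scaled to the library total, log axis) of each catalase gene in the 12 libraries, by group, with the replicate number above each point and a line at the group mean. Untreated upf-1KO lies above untreated WT for all 4 genes, replicate 2 of upf-1KO with H2O2 reaches 162.3 FPKM of *cat-2*, and replicate 1 of WT with H2O2 reaches 133.8 FPKM of *cat-1*.

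Levels are given as the deposited FPKM, which divides reads by gene length and library total, and fold changes come from edgeR's quasi-likelihood fit to the read counts of 7878 genes with TMM scaling, with Benjamini-Hochberg adjusted p-values over all of them and a threshold of 0.05. Normalized counts are reads divided by the effective library size. The comparison of untreated upf-1KO with WT asks what the loss of UPF-1 does to the catalase transcripts when no oxidant is added. All 4 were more abundant in upf-1KO, and 3 of them, *cat-1*, *cat-3* and *cat-4*, rose past the threshold, where 10.4 percent of all genes tested were called higher. The median log2 fold change of the 4 genes was 2.08, against -0.13 over all genes tested. In bulk mycelium, a change in the share of cells that hold a transcript and a change in its amount per cell cannot be told apart.

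*cat-4*, the gene of the small-subunit type, had the largest fold change. It had 27.5, 30.0 and 27.0 FPKM in upf-1KO, against 3.94, 4.90 and 5.71 FPKM in WT. The groups were far apart, with a log2 fold change of 2.34 (SE, the standard error, 0.35, adjusted p = 0.000838 from edgeR). *cat-3*, the gene of the main catalase of growing mycelium, had 189.7, 186.1 and 187.7 FPKM in upf-1KO, against 38.6, 45.1 and 37.1 FPKM in WT. The 3 upf-1KO libraries lay close together, and the log2 fold change of 2.02 had the smallest SE of the 4 genes (0.17, adjusted p = 1.7e-05 from edgeR). By FPKM, *cat-3* ranked between 401 and 416 among all genes in upf-1KO and between 1731 and 2046 in WT.

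*cat-1*, the catalase of conidia, had 92.4, 83.6 and 85.1 FPKM in untreated upf-1KO, against 27.2, 25.0 and 31.2 FPKM in WT. Its log2 fold change was 1.45 (SE 0.34, adjusted p = 0.0129 from edgeR), the smallest of the 4, and leaving out replicate 1 or replicate 2 of untreated WT put its adjusted p at 0.0554 or 0.0618. *cat-2*, the catalase-peroxidase, had 22.8, 19.9 and 19.3 FPKM in upf-1KO, against 5.02, 3.72 and 3.53 FPKM in WT. These groups did not overlap, yet the log2 fold change of 2.14 missed the threshold (SE 0.70, adjusted p = 0.0605 from edgeR) in the fit that shares its estimate of spread over all 12 libraries. Of 10 other settings that left out no single library, 7 also left *cat-2* uncalled. DESeq2 called it higher at 2.14 (adjusted p = 0.00717). So did edgeR with the untreated groups fitted alone, at 2.26 (adjusted p = 3.9e-10). With the gene length trend removed it was called at 2.18 (adjusted p = 0.0379 from edgeR). The rule of the study's methods called it as well. Without the libraries that stood apart, both of them treated, its log2 fold change was 2.13 (adjusted p = 9.6e-12 from edgeR). All 4 genes were then called. In that fit 23.2 percent of all genes tested were called higher and 35.9 percent lower. Of the 7878 genes tested, 25.7 percent had normalized counts that were higher in upf-1KO without overlap.

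Mycelium can carry conidiating cells, and *cat-1* and *cat-2* are known from them, so 8 conidiation genes were read in the same libraries. Of these, 4 were called higher in untreated upf-1KO (*con-8* by 3.23, *con-13* by 2.66, *con-6* by 1.63 and *ccg-1* by 1.47 on the log2 scale) and none lower. Among all genes tested, 10.4 percent were called higher and 4.71 percent lower. The first 3 rested on few reads. *con-8* had 32, 39 and 38 reads in upf-1KO and 3, 5 and 2 in WT, *con-13* 17, 9 and 27 against 5, 1 and 1, and *con-6* 48, 31 and 41 against 9, 14 and 11. The summed reads of the 8 genes overlapped as a percentage of counted reads, at 1.21 to 1.28 percent in upf-1KO and 1.17 to 1.41 percent in WT. In normalized counts the sums were lower in upf-1KO without overlap, at 65506, 65546 and 61230 in upf-1KO and 81752, 69250 and 83241 in WT. Most of that sum was *eas*, the hydrophobin of the spore coat, whose log2 fold change was -0.36 (adjusted p = 0.308 from edgeR). Without the libraries that stood apart *eas* was again at -0.36 but called lower (adjusted p = 0.00101 from edgeR). Of the 8 genes, 5 were then called higher and 1 lower, beside 23.2 and 35.9 percent of all genes tested. The part of these genes in the catalase result was not tested.

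**Figure D2:**
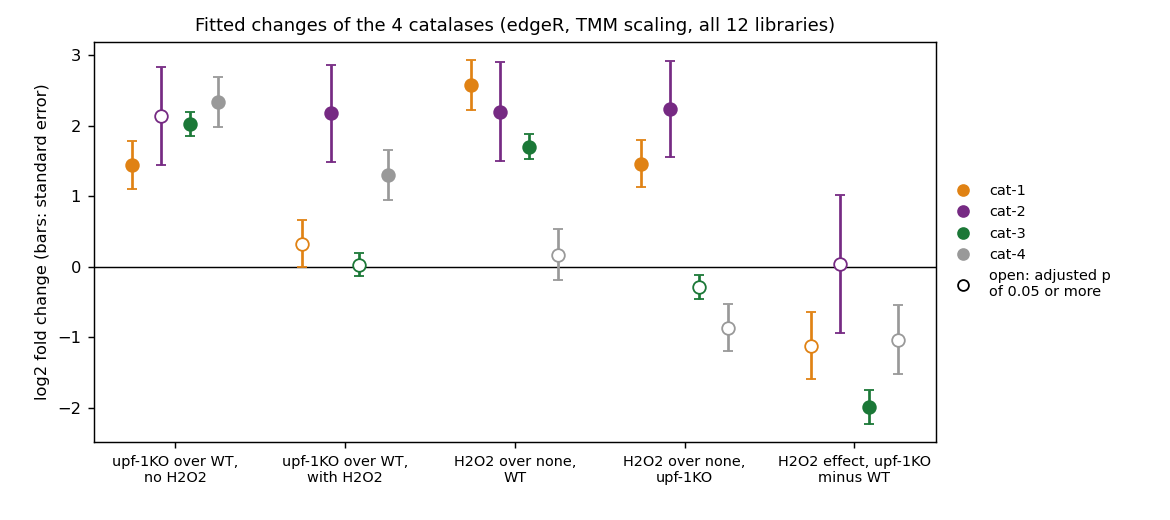
Log2 fold change (y axis) of *cat-1*, *cat-2*, *cat-3* and *cat-4* in each comparison (x axis), with the standard error as bars, from edgeR with TMM scaling over all 12 libraries. Filled points have an adjusted p under 0.05. The *cat-3* point sits at 2.02 for untreated upf-1KO over WT and at 0.03 with H2O2, and at 1.71 and -0.29 for H2O2 over none in WT and in upf-1KO.

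H2O2 in the WT strain asks how the catalases respond to the oxidant with UPF-1 present. *cat-3*, *cat-1* and *cat-2* rose and *cat-4* was not called, so 3 of the 4 were higher, beside 26.5 percent of all genes tested. Without the libraries that stood apart all 4 were called higher, beside 32.6 percent of all genes tested, *cat-4* with 0.54 (adjusted p = 0.0198 from edgeR). *cat-1* had 133.8, 38.9 and 45.3 FPKM with H2O2, against 27.2, 25.0 and 31.2 FPKM without. Replicate 1 was 2.82 times the mean of the other two in normalized counts, and the log2 fold change was 2.58 over all libraries and 1.90 without the libraries that stood apart, past the threshold in both fits. *cat-2* had 16.9, 3.54 and 4.31 FPKM with H2O2, against 5.02, 3.72 and 3.53 FPKM without. Only replicate 1 exceeded the untreated range by FPKM. In normalized counts, 643, 169 and 168 with H2O2 stood against 86.4, 65.4 and 62.4 without, with no overlap, and 29.7 percent of all genes tested were higher in this way. The log2 fold change of *cat-2* was 2.2 (adjusted p = 0.0189 from edgeR), 1.31 without replicate 1 alone (adjusted p = 0.119) and 1.23 without both libraries that stood apart. It was not called with library totals alone, at 1.01 (adjusted p = 0.266 from edgeR), nor without replicate 2 or replicate 3 of untreated WT, at 2.14 or 2.11 (adjusted p = 0.0585 or 0.0596).

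*cat-3* responded evenly in WT. It had 59.1, 50.1 and 57.6 FPKM with H2O2, against 38.6, 45.1 and 37.1 FPKM without, and its log2 fold change of 1.71 (SE 0.17, adjusted p = 1.3e-05 from edgeR) ranged between 1.65 and 1.80 when single libraries were left out. *cat-4* had 1.18, 2.34 and 3.37 FPKM with H2O2, against 3.94, 4.90 and 5.71 FPKM without, so its FPKM were lower without overlap, as were those of 71.4 percent of all genes tested. Its normalized counts overlapped, at 46.2, 115 and 135 with H2O2 and 69.5, 88.4 and 103 without, and the log2 fold change was 0.17 (SE 0.36, adjusted p = 0.702 from edgeR).

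The direction of *cat-4* thus turned with the scaling. TMM factors were 0.481 to 0.602 in WT with H2O2, 0.802 to 1.12 in upf-1KO with H2O2 and 1.30 to 1.53 in the untreated groups, and with library totals alone the median log2 fold change of all genes tested upon H2O2 moved to -1.36 in WT and -0.64 in upf-1KO. On that scale *cat-4* in WT had a log2 fold change of -1.08 (adjusted p = 0.0100 from edgeR), which was 0.29 above the median gene, and *cat-3* had 0.46 (adjusted p = 0.0933), which was 1.83 above it. *cat-1* was still called at 1.39 (adjusted p = 0.00592 from edgeR). Relative to the median gene, *cat-3* was higher in WT with H2O2 by 1.84 with TMM and by 1.83 with library totals, *cat-1* by 2.72 and 2.75, and *cat-2* by 2.34 and 2.38. A change of scaling moves all genes by nearly the same amount, so these values had to come out close and are not separate evidence.

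**Figure D3:**
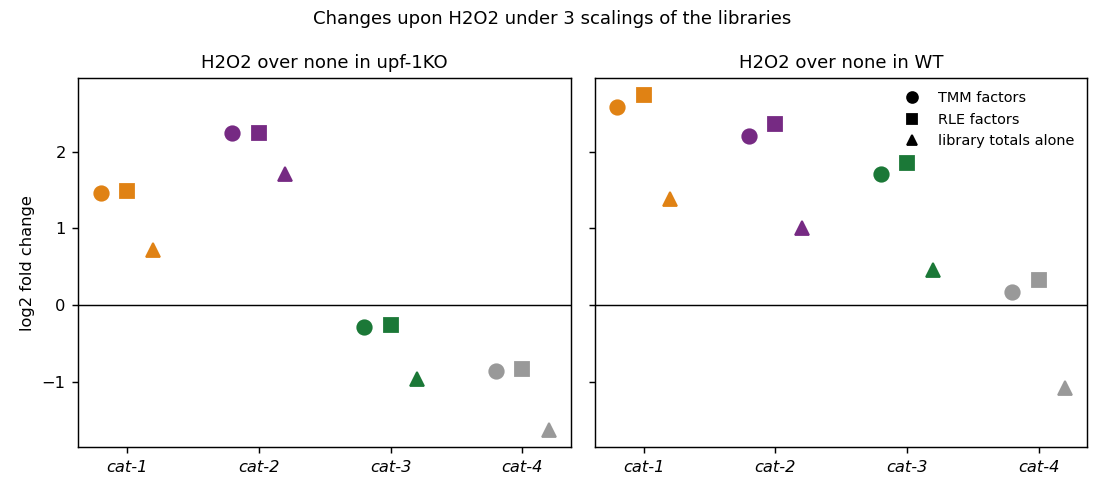
Log2 fold change (y axis) of each catalase upon H2O2 in upf-1KO (left) and WT (right) with libraries scaled by TMM factors (circles), RLE factors (squares) or library totals alone (triangles). TMM and RLE lie close together, and library totals shift all points downward, which takes *cat-4* in WT to -1.08 and *cat-3* in upf-1KO to -0.96.

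H2O2 in upf-1KO asks for the response when UPF-1 is missing. *cat-1* and *cat-2* rose, *cat-3* and *cat-4* did not, and 2 of the 4 were called higher, beside 26.0 percent of all genes tested, and none lower, beside 22.8 percent. *cat-1* had 140.2, 153.3 and 138.2 FPKM in upf-1KO with H2O2, against 92.4, 83.6 and 85.1 FPKM without, a log2 fold change of 1.46 (SE 0.34, adjusted p = 0.00395 from edgeR) that became 1.56 without the libraries that stood apart. With library totals alone it was 0.73 and was not called (adjusted p = 0.119 from edgeR). The 3 treated libraries lay close together by FPKM.

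*cat-2* turned on a single library. It had 20.3, 162.3 and 20.4 FPKM in upf-1KO with H2O2, against 22.8, 19.9 and 19.3 FPKM without. Only replicate 2 was outside the untreated range by FPKM, and there *cat-2* had 3353 reads, against 442 and 432 in the other two. In normalized counts this library was 5.83 times the mean of the other two, a ratio larger than that of 95.5 percent of genes in the same library. The log2 fold change was 2.24 (adjusted p = 0.0170 from edgeR), and without replicate 2 it was 0.86 (adjusted p = 0.0918). Without both libraries that stood apart it was again 0.86, with an adjusted p of 7.6e-07 from edgeR. Leaving out replicate 2 or replicate 3 of untreated upf-1KO kept it at 2.21 or 2.18 but put the adjusted p at 0.0551 or 0.0582.

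*cat-3* had 78.8, 142.8 and 67.4 FPKM in upf-1KO with H2O2, against 189.7, 186.1 and 187.7 FPKM without. By FPKM the treated libraries were lower without overlap, as for 51.5 percent of all genes tested. In normalized counts they were 2339, 3033 and 1922 with H2O2 and 3026, 2939 and 2931 without, with replicate 2 above all 3 untreated values. The log2 fold change was -0.29 (SE 0.17, adjusted p = 0.172 from edgeR). It was -0.48 without the libraries that stood apart (adjusted p = 9.3e-05), -0.96 with library totals alone (adjusted p = 0.00538) and 0.12 once the trend with gene length was removed. *cat-4* had 10.8, 7.65 and 8.80 FPKM in upf-1KO with H2O2, against 27.5, 30.0 and 27.0 FPKM without, and was lower in all treated libraries also in normalized counts (317, 161 and 248 with H2O2, against 435, 469 and 417 without), as were 29.3 percent of all genes tested. Its log2 fold change of -0.86 was just short of the threshold (SE 0.34, adjusted p = 0.0512 from edgeR). Without the libraries that stood apart it was -0.64 (adjusted p = 0.000211), and with library totals alone -1.63 (adjusted p = 0.00119). All 4 genes were called without those libraries, *cat-1* and *cat-2* higher and *cat-3* and *cat-4* lower. Among all genes tested, 36.5 percent were then called higher and 39.3 percent lower.

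The difference between the strains in their response to H2O2 was tested as an interaction. It was past the threshold for *cat-3* only, 1 of 4, and 2.86 percent of all genes tested were called lower in this test. The H2O2 effect on *cat-3* was -0.29 in upf-1KO and 1.71 in WT, a difference of -1.99 on the log2 scale (SE 0.24, adjusted p = 0.00103 from edgeR), and it was -2.19 without the libraries that stood apart and -1.43 with library totals alone (adjusted p = 0.0183). The normalized counts of *cat-3* in treated upf-1KO (2432 ± 561, SD, n = 3) and treated WT (2382 ± 83.8, SD, n = 3) thus overlapped, whereas in the untreated strains they were 2965 ± 52.6 and 730 ± 80.3 (SD, n = 3 each). *cat-1* and *cat-4* had differences of -1.12 (SE 0.47, adjusted p = 0.172) and -1.04 (SE 0.49, adjusted p = 0.214) from edgeR. Without the libraries that stood apart these were -0.34 (adjusted p = 0.0451) and -1.18 (adjusted p = 0.000629) from edgeR. So 3 of 4 were then called lower, beside 15.9 percent of all genes tested. At a log2 difference of -1 or less and an unadjusted p under 0.05, *cat-1* and *cat-3* were called, as were 5.92 percent of all genes tested. *cat-2* had 0.04 with a standard error of 0.98, which leaves its difference unresolved. The 4 comparisons share groups of libraries, and the interaction is built from the same 4 group means, so that these results are not separate pieces of evidence.

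*cpc-1* (NCU04050), the bZIP activator of amino acid biosynthesis genes and orthologue of yeast Gcn4, is a known activator of *cat-3* and was read beside it. Its interaction was -1.30 on the log2 scale (adjusted p = 0.0117 from edgeR). It was higher in untreated upf-1KO than in WT by 1.21 (adjusted p = 0.00062), the H2O2 effect was -0.75 in upf-1KO (adjusted p = 0.00406) and 0.55 in WT (adjusted p = 0.0169), and with H2O2 the strains differed by -0.09. These values hold for TMM scaling. In WT *cpc-1* had 6848, 5444 and 7920 reads with H2O2 and 12187, 12170 and 11290 without. In treated upf-1KO it had 11201, 10605 and 10807 reads. As a share of gene reads it was thus lower with H2O2 in WT, and higher in treated upf-1KO than in treated WT.

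With H2O2 in both strains, 2 of the 4 catalases, *cat-2* and *cat-4*, were called higher in upf-1KO, and 15.5 percent of all genes tested were. *cat-4* had 10.8, 7.65 and 8.80 FPKM in upf-1KO, against 1.18, 2.34 and 3.37 FPKM in WT, and its log2 fold change was 1.30 (SE 0.36, adjusted p = 0.0196 from edgeR). It was the only one of the 4 whose normalized counts did not overlap between the strains, and 18.1 percent of all genes tested were higher without overlap. Leaving out replicate 2 of treated WT or replicate 1 of treated upf-1KO put its adjusted p at 0.0527 or 0.0743, and without both libraries that stood apart the log2 fold change was 1.16 (adjusted p = 3.6e-05). *cat-2* differed by 2.18 (SE 0.69, adjusted p = 0.0353 from edgeR), by 0.78 without replicate 2 of upf-1KO (adjusted p = 0.178) and by 1.76 without both libraries that stood apart. *cat-1* and *cat-3* had log2 fold changes of 0.33 (SE 0.33, adjusted p = 0.475) and 0.03 (SE 0.17, adjusted p = 0.903) from edgeR. *cat-1* depended on replicate 1 of WT, with 0.92 when that library was left out (adjusted p = 0.0022) and 1.11 without both, whereas *cat-3* was -0.17 without both (adjusted p = 0.169).

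By FPKM all 4 genes were higher in treated upf-1KO than in treated WT without overlap, as 46.8 percent of all genes tested were. With library totals alone all 4 were called higher, beside 52.6 percent of all genes tested. On that scale the median gene was 0.91 higher in upf-1KO. Relative to that median *cat-3* was -0.11, *cat-1* 0.08, *cat-4* 1.08 and *cat-2* 2.13. The summed conidiation genes separated these groups widely, at 1.18 to 1.35 percent of counted reads in treated upf-1KO and 0.0940 to 0.117 percent in treated WT. Most of each sum was *eas*, with 80974, 76265 and 88751 reads in upf-1KO and 5417, 3583 and 5315 in WT. In WT with H2O2 *con-13* was at 0 reads in replicates 2 and 3 and *con-6* in replicate 3. Of the 8, 3 were called higher in treated upf-1KO than in treated WT (*con-6*, *eas* and *fl*, by 5.71, 3.35 and 0.72) and none lower. Among all genes tested, 15.5 percent were higher and 12 percent lower. Upon H2O2, 3 of the 8 rose in upf-1KO and none fell, beside 26.0 and 22.8 percent of all genes. In WT 3 rose and 3 fell, beside 26.5 and 30.2 percent. With library totals alone, 7 of the 8 were higher in treated upf-1KO than in treated WT, beside 52.6 percent of all genes tested. On that scale 1 was higher and 1 lower upon H2O2 in upf-1KO, beside 9.22 and 43.2 percent of all genes. In WT none was higher and 4 were lower, beside 7.25 and 67.3 percent. Leaving out the libraries that stood apart, 6 were higher in treated upf-1KO than in treated WT, beside 27.0 percent of all genes. Upon H2O2, 3 were then higher in upf-1KO, beside 36.5 percent, and 3 higher and 4 lower in WT, beside 32.6 and 40.4 percent. The part of the conidiation genes in the catalase results was not tested.

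The order of the groups differed from gene to gene. By mean FPKM *cat-1* was highest in upf-1KO with H2O2 (143.9 ± 8.22, SD, n = 3), then in untreated upf-1KO (87.0 ± 4.73) and WT with H2O2 (72.7 ± 53.1), whose ranges overlapped, and lowest in untreated WT (27.8 ± 3.12). *cat-2* had 67.7 ± 82.0 FPKM in upf-1KO with H2O2 and 20.7 ± 1.86 in untreated upf-1KO, which overlapped, and then 8.24 ± 7.47 in WT with H2O2 and 4.09 ± 0.813 in untreated WT, which overlapped as well. *cat-3* followed another order, with 187.9 ± 1.81 FPKM in untreated upf-1KO, 96.3 ± 40.6 in upf-1KO with H2O2, 55.6 ± 4.84 in WT with H2O2 and 40.3 ± 4.27 in untreated WT, and no neighbours in it overlapped by FPKM. *cat-4* had 28.2 ± 1.62 FPKM in untreated upf-1KO, 9.09 ± 1.60 in upf-1KO with H2O2, 4.85 ± 0.887 in untreated WT and 2.30 ± 1.10 in WT with H2O2, again without overlap of neighbours by FPKM. Such gaps were common. FPKM were lower with H2O2 without overlap for 51.5 percent of all genes in upf-1KO and 71.4 percent in WT. Treated upf-1KO was above treated WT in this way for 46.8 percent. For the other neighbours the share of all genes was not counted.

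Shares of the summed catalase FPKM were compared next, because a share within a library does not depend on how libraries are scaled. *cat-3* and *cat-1* were the most abundant pair in every library but replicate 2 of upf-1KO with H2O2. In untreated mycelium *cat-3* came first in all 6 libraries, with 57.1, 58.2 and 58.8 percent in upf-1KO and 51.6, 57.3 and 47.9 percent in WT. *cat-1* followed with 27.8, 26.2 and 26.7 percent in upf-1KO and 36.4, 31.8 and 40.2 percent in WT. *cat-4* had 8.28 to 9.39 percent in upf-1KO and 5.27 to 7.36 percent in WT, and *cat-2* 6.05 to 6.85 percent in upf-1KO and 4.56 to 6.72 percent in WT. The order of *cat-4* and *cat-2* was the same in all 3 upf-1KO libraries, with *cat-4* ahead, and varied in WT. The widest 95% Wilson interval of a read share reached 2.44 percentage points to either side, which covers counting error only.

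With H2O2 the pool had another make-up. *cat-1* held 56.1, 32.9 and 58.8 percent in upf-1KO and 63.4, 41.0 and 41.0 percent in WT. *cat-3* held 31.5, 30.6 and 28.7 percent in upf-1KO and 28.0, 52.8 and 52.1 percent in WT. *cat-1* was ahead of *cat-3* in all 3 upf-1KO libraries and in replicate 1 of WT, whereas replicates 2 and 3 of WT kept *cat-3* ahead. *cat-2* held 8.10, 34.8 and 8.70 percent in upf-1KO and 7.99, 3.74 and 3.90 percent in WT, and in replicate 2 of upf-1KO it was the most abundant of the 4. *cat-4* held 4.32, 1.64 and 3.75 percent in upf-1KO and 0.560, 2.47 and 3.05 percent in WT, and *cat-2* exceeded *cat-4* in all 6 treated libraries.

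**Figure D4:**
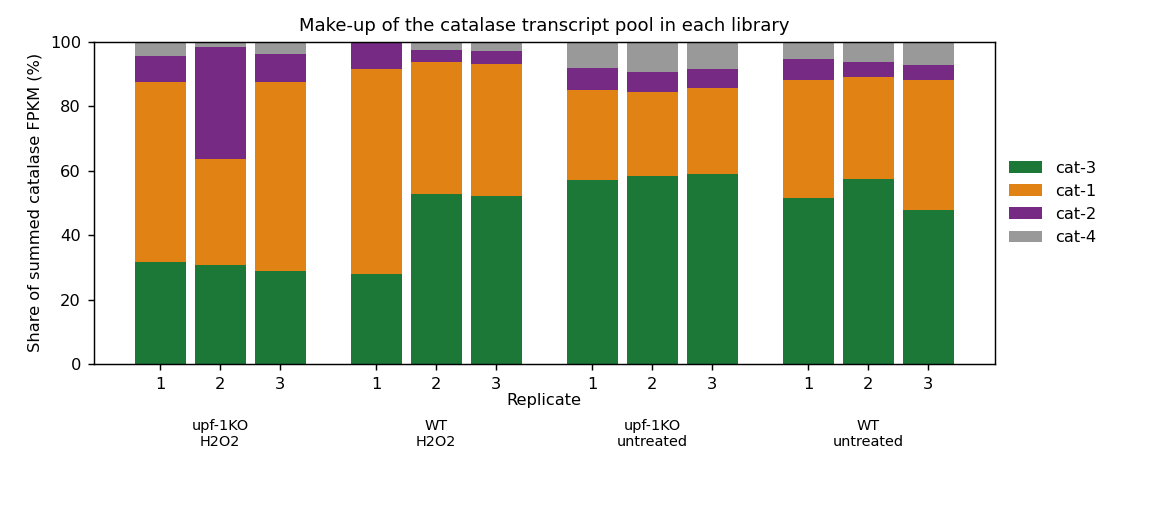
Share of the summed catalase FPKM (y axis, percent) held by each gene in the 12 libraries, stacked, with the replicate number under each bar. *cat-3* holds 47.9 to 58.8 percent in untreated libraries and 28.7 to 31.5 percent in upf-1KO with H2O2.

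The differences in share were tested over all 12 libraries with two-sided exact permutation tests, in which libraries were exchanged within a strain for H2O2 and within a treatment for the strains. There were 14 such tests, for 4 shares and the sum on 3 scales under both factors, and 0.005 is the smallest p they can give with 400 arrangements. With Benjamini-Hochberg adjustment over the 14, exact permutation p-values of 0.005 became 0.014, those of 0.015 became 0.03, and those of 0.025 and 0.03 became 0.042. The 4 shares of a library add up to 100, so they do not move independently. The share of *cat-1* was higher with H2O2 by 17.4 percentage points (exact permutation p = 0.005), by 22.4 in upf-1KO and 12.3 in WT. In WT it was 4.87 points without replicate 1 of the treated libraries. The share of *cat-4* was lower, with a difference of -4.87 points (exact permutation p = 0.005) and all treated libraries under all untreated ones of the same strain. The share of *cat-3* was lower, with a difference of -17.9 points (exact permutation p = 0.03), -27.8 in upf-1KO and -7.97 in WT, where it was 0.173 without replicate 1. Without the libraries that stood apart the difference was -13.9 points, with p = 0.06 from the same exact test, and 10 of the 12 tests that left out 1 library kept p under 0.05. *cat-2* was higher by 5.35 points (exact permutation p = 0.185) and by 0.253 without those libraries. The shares of *cat-1* and *cat-4* then differed by 17.7 and -4.10 points, with p = 0.01 each from the exact test.

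Between the strains, the share of *cat-2* was 6.52 points higher in upf-1KO (exact permutation p = 0.025), but 2.12 points without replicate 2 of upf-1KO with H2O2 (p = 0.095 from the exact test). Of the 12 exact tests that left out 1 library, 8 kept p under 0.05 for *cat-2*. The highest p was 0.335, without replicate 2 or replicate 3 of treated WT. The share of *cat-4* was 1.82 points higher in upf-1KO (exact permutation p = 0.03), and 5 of the 12 exact tests that left out 1 library kept p under 0.05, with a highest p of 0.065. The shares of *cat-3* and *cat-1* differed between the strains in opposite ways in the 2 treatments. For *cat-3* the difference between upf-1KO and WT was -14.0 points with H2O2 and 5.78 without, and for *cat-1* it was 0.804 with H2O2 and -9.25 without, so that over both treatments the differences were -4.12 (exact permutation p = 0.395) and -4.22 points (p = 0.49). With H2O2 these differences moved with the libraries that stood apart. Without replicate 1 of WT the *cat-1* shares averaged 49.3 percent in upf-1KO and 41.0 percent in WT, a difference of 8.29 points, and those of *cat-3* averaged 30.3 percent in upf-1KO and 52.4 percent in WT, a difference of -22.2. Without both libraries the differences were 16.5 points for *cat-1* and -22.3 for *cat-3*. Within 1 treatment 3 libraries against 3 cannot give p below 0.1, and these differences were not tested.

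The log2 ratio of *cat-1* to *cat-3*, a measure per gene length in the same library, was 0.66 ± 0.49 in upf-1KO with H2O2, 0.16 ± 0.89 in WT with H2O2, -1.11 ± 0.06 in untreated upf-1KO and -0.54 ± 0.30 in untreated WT (SD, n = 3 each). The upf-1KO libraries had both the lowest ratios, without H2O2, and, apart from replicate 1 of WT, the highest, with H2O2. The treated means without the libraries that stood apart were 0.93 in upf-1KO and -0.36 in WT. The log2 ratio of *cat-2* to *cat-4* was 2.18 ± 1.94 in upf-1KO with H2O2, 1.60 ± 1.94 in WT with H2O2, -0.45 ± 0.16 in untreated upf-1KO and -0.25 ± 0.54 in untreated WT (SD, n = 3 each). Without those libraries its treated means were 1.06 in upf-1KO and 0.48 in WT. Its lowest treated value, 0.35 in WT with H2O2, was close to the highest untreated value, 0.35 in WT.

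The summed FPKM of the 4 genes was 250.1, 466.1 and 234.9 in upf-1KO with H2O2, 211.0, 94.8 and 110.6 in WT with H2O2, 332.5, 319.7 and 319.0 in untreated upf-1KO, and 74.7, 78.8 and 77.5 in untreated WT. By FPKM the upf-1KO libraries exceeded those of WT under both treatments, with a difference of 1.64 on the log2 scale (exact permutation p = 0.005), 1.21 with H2O2 and 2.07 without. With TMM-scaled counts per kilobase the difference was 1.18 (exact permutation p = 0.015), 0.50 with H2O2 and 1.87 without. On that scale the treated strains overlapped, with sums of 2412, 3217 and 2175 in upf-1KO and 2712, 1525 and 1452 in WT. With RLE scaling the difference with H2O2 was 0.37. The H2O2 difference in summed FPKM was 0.33 (exact permutation p = 0.275), -0.10 in upf-1KO and 0.76 in WT. It depended on the scaling, with 1.32 for TMM-scaled counts per kilobase (exact permutation p = 0.005), 0.63 in upf-1KO and 2.0 in WT. As a share of all FPKM in a library, the 4 genes held 0.0659 to 0.0694 percent in untreated upf-1KO and 0.0154 to 0.0162 percent in untreated WT.

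Since each catalase needs heme, the 7 heme synthesis enzymes named in the study were read in the same fit. In untreated upf-1KO against WT none of the 7 was called, beside 10.4 percent of all genes tested called higher and 4.71 percent lower. Their median log2 fold change was -0.32, against -0.13 over all genes tested. They ranged from -0.44 to 0.13, all under the lowest catalase value of 1.45. At an unadjusted p under 0.05 edgeR had 1 of them lower, NCU08291 (ferrochelatase, which inserts the iron), at -0.32 (adjusted p = 0.0898), and DESeq2 called this 1 lower as well. Without the libraries that stood apart 5 were called lower in edgeR, beside 35.9 percent of all genes tested. With H2O2 in WT, 4 enzymes were called higher in TMM-scaled counts, NCU02395 (uroporphyrinogen-III synthase, 1.95), NCU01013 (aminolevulinate dehydratase, 0.78), NCU02771 (uroporphyrinogen decarboxylase, 0.76) and NCU01546 (coproporphyrinogen oxidase, 0.65), and 3 lower, NCU10292 (porphobilinogen deaminase, -1.07), NCU06189 (aminolevulinate synthase, which starts the pathway, -0.97) and NCU08291 (-0.84), as log2 fold changes. In upf-1KO 3 rose upon H2O2, NCU02395 (1.36), NCU01546 (0.86) and NCU01013 (0.82), and 1 fell, NCU10292 (-1.15). Among all genes tested, 26.5 percent rose and 30.2 percent fell upon H2O2 in WT, and 26.0 and 22.8 percent in upf-1KO. With H2O2, NCU06189 and NCU08291 were higher in upf-1KO than in WT by 1.14 and 0.72 and NCU02395 was lower, at -1.03. These calls stood beside 15.5 percent of all genes tested called higher and 12 percent lower. NCU02395 was not called with library totals alone, at -0.39 (adjusted p = 0.246 from edgeR). NCU06189 was at 0.55 without the libraries that stood apart. The response of NCU08291 differed between the strains by 1.05 (adjusted p = 0.00642 from edgeR), the only one of the 7 called in that test. In it 3.86 percent of all genes tested were called higher. With library totals alone, 1 was higher and 5 were lower upon H2O2 in WT, beside 7.25 and 67.3 percent of all genes tested. In upf-1KO none was higher and 2 were lower, beside 9.22 and 43.2 percent, so that the directions of this list depend on the scaling. The interaction was called for 3 of the 7 without the libraries that stood apart, NCU08291 (1.02), NCU01546 (0.62) and NCU01013 (0.62), beside 21.0 percent of all genes called higher in it. Upon H2O2, 5 were then higher and 2 lower in upf-1KO, beside 36.5 and 39.3 percent of all genes. In WT 3 were higher and 3 lower, beside 32.6 and 40.4 percent. In treated upf-1KO 3 were higher and 3 lower than in treated WT, beside 27 and 26.1 percent.

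The genes most like each catalase were sought among 5607 genes that averaged 100 or more normalized counts, by Pearson's r of log2 normalized counts over the 12 libraries, as a description. Points share their group and their library, the libraries that stood apart included. For *cat-1* they were NCU09519 (r = 0.987), NCU05089 (0.985) and NCU04315 (0.976), and for *cat-2* NCU09465 (r = 0.979), NCU07915 (0.967) and NCU03408 (0.963). For *cat-4* they were NCU03232 (r = 0.970), NCU02126 (0.960) and NCU05016 (0.952). *cat-3* had lower maxima, with *ccg-13* (NCU08907, r = 0.921), NCU01861 (0.915) and *gh28-1* (NCU02369, 0.914). Among the catalases themselves *cat-1* and *cat-2* were most alike (r = 0.82) and *cat-1* and *cat-4* least (r = 0.17).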

How the data were processed

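RNA from independent pools of mycelium, 3 libraries in each of 4 groups, was sequenced, and groups and replicate numbers were taken from the sample titles. The authors aligned the reads to the NC12 genome with HISAT2 2.2.1 and counted them on genes with featureCounts (Subread 2.0.1), and the deposited counts are whole reads per gene without normalization. The deposited FPKM values equal count divided by gene length and library total to within a relative difference of 2.2e-08, so they carry no correction beyond the library total. Which of the 2 instruments in the study's methods ran which library is not stated.

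Counts were fitted in R 4.3.3 with edgeR 4.0.16 (filterByExpr, TMM, glmQLFit and glmQLFTest, 1 mean per group, all 12 libraries, 7878 of 10685 genes). Genes were called at a Benjamini-Hochberg adjusted p under 0.05. The rule of the study's methods (log2 fold change of at least 1 in size, unadjusted p under 0.05), DESeq2 1.42.0, RLE factors, library totals, 2 filters, the groups compared alone, a replicate block, removal of the gene length trend (loess, span 0.5), limma 3.58.1 on log2(FPKM + 1) and log2(FPKM + 0.1), and each library left out in turn were alternatives. Shares and sums were tested with exact permutation tests in Python 3.11.15 (numpy 2.4.6, pandas 2.3.3), with Wilson intervals at 95 percent for read shares (scipy 1.17.1). The genes named are the 4 catalases, 7 heme enzymes, 8 conidiation markers, *upf-1*, *cpc-1* and the 3 genes most correlated with each catalase (log2 of normalized counts with a prior of 1). These members and lists were chosen with earlier results of these data known. Symbols came from RefSeq, which matched 10588 of 10685 identifiers.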

Additional observations from a re-analysis of the deposited data

Results flagged for a closer look

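The response of *cat-3* to H2O2 differed between the strains. The log2 fold change upon H2O2 was -0.29 in upf-1KO and 1.71 in WT, and the interaction term gave a difference of -1.99 (SE 0.24, adjusted p = 0.00103 in edgeR), which met the threshold for a difference between groups. Under the alternatives run it was below 0 and past the threshold each time, with values of -2.23 to -1.43 and adjusted p of at most 0.0183.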

How the results depend on the processing

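Of 456 values of the 20 log2 fold changes under alternatives, 354 kept their direction and their side of the threshold, 40 passed the threshold anew, 34 no longer passed it and 28 changed sign. Except where a value says otherwise, the cause of these changes was not tested. For *cat-4* upon H2O2 in WT the log2 fold change was -1.08 with library totals, -0.87 for log2(FPKM + 1) and -1.14 for log2(FPKM + 0.1), and -0.072 to 0.60 with 1 library left out. For *cat-3* upon H2O2 in upf-1KO it was 0.12 without the length trend. For *cat-3* in upf-1KO against WT with H2O2 it was -0.10 with DESeq2, RLE factors or no filter, -0.015 without the length trend, -0.17 without both libraries that stood apart and -0.16 to 0.061 with 1 library left out, and for *cat-1* the range with 1 library left out was -0.026 to 0.92. The interaction of *cat-2* was -0.10 with DESeq2, -0.11 with RLE factors, -0.077 without a filter, -0.12 without the length trend, -0.38 without both libraries and -1.35 to 0.76 with 1 library left out.

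Upon H2O2, the summed catalases changed by 1.32 (TMM) and 1.41 (RLE) per kilobase, and by -0.0030 in FPKM without both libraries that stood apart. The *cat-3* share differed by -13.9 points without both and by -20.0 to -13.8 with 1 library left out. Between upf-1KO and WT without both libraries, the shares of *cat-1* and *cat-2* differed by 3.61 and 2.81 points, and with 1 library left out those of *cat-2* and *cat-4* differed by 2.12 to 8.80 and 1.45 to 2.22 points. Catalases called upon H2O2 in upf-1KO numbered 4 without both libraries and 1 to 4 with 1 left out. Without both, 36.5 percent of all genes tested were called higher there and 39.3 percent lower. In upf-1KO against WT with H2O2 the catalases called numbered 4 with library totals and with limma at either pseudocount. They numbered 0 when only the treated groups were fitted, and 0 to 3 with 1 library left out. With library totals, 52.6 percent of all genes were called higher in that comparison. In the limma fits the median gene was itself higher in upf-1KO, by 0.51 for log2(FPKM + 1) and 0.76 for log2(FPKM + 0.1). The share of all genes called was not counted for limma or for the treated groups alone, so these counts of catalases have no reference. For the interaction the catalases called numbered 3 without both libraries, 2 under the rule of the study's methods and 1 to 2 with 1 library left out. Without both, 15.9 percent of all genes were called lower in the interaction.

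Replicate numbers gave no sign of pairing the libraries, with correlations of same-numbered deviations between -0.248 and 0.222. Differently numbered libraries were not compared in this way, so pairing was not tested. With the replicate block, 1 catalase in place of 2 was called in upf-1KO against WT with H2O2, *cat-2* having an adjusted p of 0.0606 from edgeR, the interaction of *cat-2* was -0.070, and no other call of the 4 genes changed. Reads of *cat-4* in WT with H2O2, 26, 42 and 73, and of *cat-2* there in 2 of 3 libraries, 62 and 91, limit the precision of their ratios.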
